A study of Mus musculus with 145 samples.

Results

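Dorsal skin taken 3 to 4 days after exposure to 20 mJ/cm2 of ultraviolet light was compared with skin of sham-handled mice at the same times. The lamps were those of a tanning canopy, whose output was mostly UVA with a minor share of UVB. The comparison holds 9 libraries of 20 mJ/cm2 (5 at 72 h and 4 at 96 h) and 10 sham libraries (5 at 72 h and 5 at 96 h), of 145 libraries in the series. They were chosen by the dose and time on their labels, and time entered the test as a block. Each library is a separate animal. The series has 5 doses (0, 5, 10, 20 and 40 mJ/cm2) and 6 times (0, 6, 24, 48, 72 and 96 h), and sham mice were handled without light. The labels used here give no strain, sex or age. The comparison asks what is left of the skin's response to this dose after 72 to 96 h.

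Ultraviolet light damages DNA in the epidermis, and the keratinocytes there first activate p53 targets, then alarm keratins, protease inhibitors and cytokines. Over the following days basal cells divide faster, and the outer layers, built from differentiation keratins, filaggrin and cornified envelope proteins, thicken and shed. Whole skin also holds hair follicles, sebaceous glands, dermis, fat and a sheet of skeletal muscle, the panniculus carnosus, so its RNA mixes all of these. In such bulk tissue, fewer cells of a type and less RNA per cell cannot be told apart.

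Total counts ran from 3.88 to 19.2 M (M for mega) in the 20 mJ/cm2 libraries and from 4.15 to 19.1 M in the sham libraries. The skin markers were present in all of them: the basal keratin Krt5 ran from 525 to 3745 CPM (counts scaled to a common library size) with 20 mJ/cm2 and from 574 to 2821 CPM in sham, and the dermal collagen Col1a1 from 5038 to 20946 CPM with 20 mJ/cm2 and from 5856 to 18456 CPM in sham. Myh4, a fast skeletal muscle myosin, was also abundant. Mitochondrial transcripts made up 2.05% to 14.0% of counts with 20 mJ/cm2 and 2.15% to 12.0% in sham. Libraries above 7.5% were 20 mJ/cm2 replicate 3 at 72 h (14.0%), 20 mJ/cm2 replicate 3 at 96 h (7.83%) and sham replicate 3 at 72 h (12.0%). At 72 h replicate 3, numbered in accession order, was also the highest of its dose group after 10 mJ/cm2 (14.4%) and 40 mJ/cm2 (9.01%), though not after 5 mJ/cm2 (6.57%), and replicate 5 held 2.05% to 2.51% in all 5 dose groups. The labels do not say what libraries of 1 number share, and this was not tested. Gene lists are given with and without these 3 libraries, and a fit with the mitochondrial share as a covariate called 7 genes.

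No gene passed an adjusted p of 0.05 in edgeR's quasi-likelihood test with Benjamini-Hochberg adjustment, 0 of 17438 genes tested (0%). An unadjusted p under 0.05 was reached by 754 genes (4.32%), of which 293 were higher (1.68%) and 461 lower (2.64%) after 20 mJ/cm2. DESeq2 on the same design called 18 genes (0.103%), 9 higher and 9 lower. Without the 3 libraries rich in mitochondrial transcripts, edgeR called 12 of 17221 genes (0.0697%), 5 higher and 7 lower, and 2293 genes had an unadjusted p under 0.05 (13.3%), 6.64% of genes being higher and 6.68% lower. The median log2 fold change over all genes was 0.03. Genes are therefore named below by their place in the order of p, or as members of the gene lists, after their values were seen; the words higher and lower describe the measured values.

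**Figure D1:**
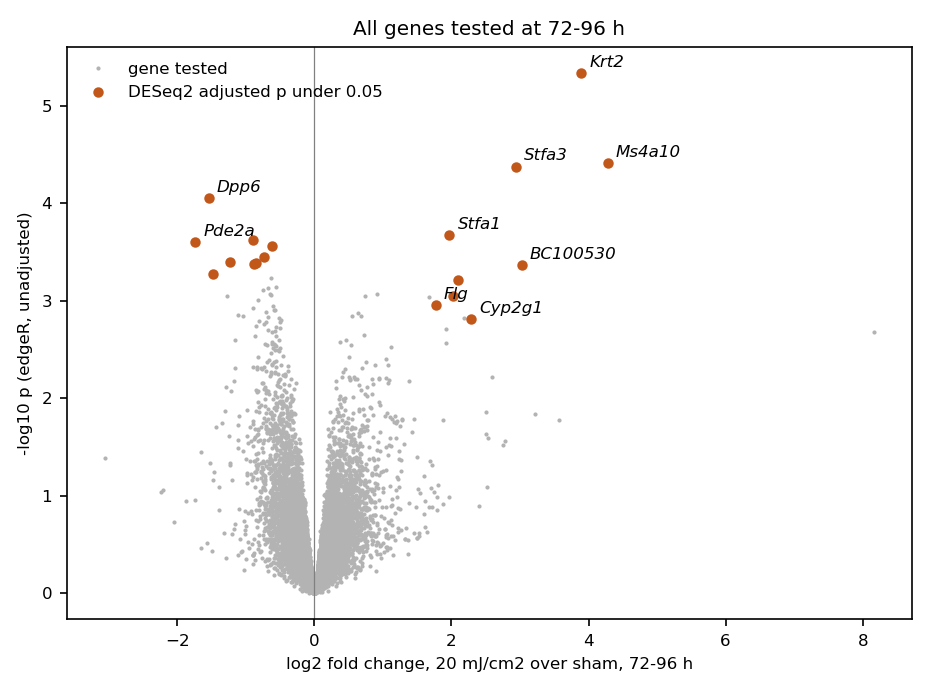
Each point is 1 of 17438 genes: the horizontal axis is the log2 fold change of 20 mJ/cm2 over sham at 72 to 96 h and the vertical axis the unadjusted edgeR p on a −log10 scale. The 18 genes DESeq2 called are in orange, with Krt2 at the top right (log2 fold change 3.90) and Dpp6 at the top left (−1.54).

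The keratin Krt2 had the smallest p. It is a filament protein of the upper spinous and granular layers, made at some body sites and little at others. At 72 h its level was 4.84, 92.3, 5.99, 20.0 and 153 CPM in the 20 mJ/cm2 mice, against 1.51, 2.14, 1.42, 4.80 and 3.26 CPM in the sham mice. At 96 h it was 14.2, 25.9, 9.79 and 6.86 CPM with 20 mJ/cm2, against 0.783, 2.24, 1.93, 1.45 and 0.864 CPM in sham. Every irradiated mouse was above every sham mouse, although the lowest irradiated value (4.84) and the highest sham value (4.80) nearly touched, and the irradiated mice spread over a wide range. Krt2 was the only gene of those tested with all 9 irradiated libraries above all 10 sham libraries (0.00573% of genes). Its log2 fold change was 3.90 ± 0.61 (SE), with an edgeR adjusted p of 0.0801 and a DESeq2 adjusted p of 2.86e-09. Without the 3 libraries rich in mitochondrial transcripts it was 4.08, with an edgeR adjusted p of 0.0290. The time-resolved fit gave Krt2 4.39 ± 0.84 at 72 h and 3.26 ± 0.86 at 96 h.

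The stefin A genes, a tight cluster of cysteine protease inhibitors made by stressed and cornifying keratinocytes, came next. Stfa3 at 72 h was 14.5, 119, 25.8, 12.8 and 85.3 CPM in the 20 mJ/cm2 mice and 25.7, 7.36, 21.3, 5.70 and 7.05 CPM in sham mice. At 96 h Stfa3 was 109.8, 85.6, 70.1 and 11.3 CPM with 20 mJ/cm2 and 4.50, 2.87, 3.94, 3.29 and 4.90 CPM in sham. The groups overlapped at 72 h, where 2 sham mice stood above 2 of the irradiated mice, and did not overlap at 96 h. The late log2 fold change of Stfa3 was 2.94 ± 0.55, with an edgeR adjusted p of 0.244, a DESeq2 adjusted p of 1.21e-05 and, without the mitochondria-rich libraries, an edgeR adjusted p of 0.0327. Stfa1 ran from 2.04 to 12.5 CPM (median 7.12) with 20 mJ/cm2 and from 0.263 to 6.49 CPM (median 1.41) in sham, a log2 fold change of 1.97 ± 0.43. BC100530, of the same cluster, ran from 7.31 to 134 CPM (median 47.3) with 20 mJ/cm2 and from 1.76 to 60.7 CPM (median 2.81) in sham, a log2 fold change of 3.02 ± 0.71. The highest sham values of Stfa3, Stfa1 and BC100530 all came from 1 animal, sham replicate 1 at 72 h. Without that animal their log2 fold changes were 3.17, 2.24 and 3.67. These genes are close relatives, so reads may have been shared among them in the authors' counting.

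Krt2 and the stefin pair Stfa3 and Stfa1 had the smallest p among the higher genes named, and filaggrin (Flg) came behind BC100530, Sprr2a2 and Lce1g. The bases before the start sites of Krt2, the stefin pair and filaggrin are shown. They are the 250 bases upstream in RefSeq on GRCm38.p6, a build other than the GRCm39 of the counts: Krt2 at chr15:101818170-101818419 (minus strand), Stfa3 at chr16:36455393-36455642 (minus strand), Stfa1 at chr16:36276898-36277147 (plus strand) and Flg at chr3:93273296-93273545 (plus strand). Capitals mark the letters TATAA on the gene's strand and TGANTCA on either strand in Krt2 and Flg, and the longest identical run, of 16 bases, in the stefin pair.
Krt2: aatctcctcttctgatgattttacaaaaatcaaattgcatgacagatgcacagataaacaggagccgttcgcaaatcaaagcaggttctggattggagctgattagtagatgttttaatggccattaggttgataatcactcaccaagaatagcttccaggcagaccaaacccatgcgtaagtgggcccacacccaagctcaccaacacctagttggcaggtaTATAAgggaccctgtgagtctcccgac
Stfa3: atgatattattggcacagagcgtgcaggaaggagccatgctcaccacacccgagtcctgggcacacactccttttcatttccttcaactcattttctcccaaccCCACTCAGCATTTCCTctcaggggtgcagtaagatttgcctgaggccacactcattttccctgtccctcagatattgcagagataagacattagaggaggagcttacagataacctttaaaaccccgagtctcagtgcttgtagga
Stfa1: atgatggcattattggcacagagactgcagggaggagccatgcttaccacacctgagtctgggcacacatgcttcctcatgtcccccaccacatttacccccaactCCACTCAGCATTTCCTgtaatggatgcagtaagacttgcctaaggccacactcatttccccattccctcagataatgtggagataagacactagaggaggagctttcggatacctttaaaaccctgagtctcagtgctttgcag
Flg: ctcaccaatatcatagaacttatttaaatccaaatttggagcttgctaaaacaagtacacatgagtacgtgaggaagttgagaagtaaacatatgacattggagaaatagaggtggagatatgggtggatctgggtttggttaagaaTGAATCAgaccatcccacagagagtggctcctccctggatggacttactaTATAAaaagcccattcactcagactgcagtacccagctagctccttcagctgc
Counting the last base before the start as −1, TATAA began at −27 in Krt2 and at −53 in Flg, and TGANTCA at −103 in Flg. Neither set of letters was found in the stefin windows. Of 32851 RefSeq upstream windows of this length, 16.0% held TATAA and 6.75% held TGANTCA. The stefin windows were identical in 83.5% of aligned columns, while every other pair of these 4 windows matched in 46.3% to 52.2%.

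Other genes of the outer epidermis had p-values near the front. Filaggrin (Flg), the precursor of the skin's moisturizing amino acids, was 28.8, 143, 49.6, 8.88 and 130 CPM in the 20 mJ/cm2 mice at 72 h, against 21.6, 17.1, 21.2, 12.5 and 19.0 CPM in sham mice. At 96 h it was 61.7, 42.6, 17.3 and 9.10 CPM with 20 mJ/cm2 and 11.5, 43.0, 5.01, 5.52 and 5.01 CPM in sham. Its groups overlapped at both times, since 1 irradiated mouse was low at each time and sham replicate 2 at 96 h was high. The log2 fold change of Flg was 1.77 ± 0.46, with an edgeR adjusted p of 0.633 and a DESeq2 adjusted p of 0.0481. The small proline-rich envelope gene Sprr2a2 ran from 6.95 to 91.3 CPM (median 31.3) with 20 mJ/cm2 and from 3.39 to 39.2 CPM (median 6.88) in sham, a log2 fold change of 2.02 ± 0.51 and a DESeq2 adjusted p of 0.0239. The late cornified envelope gene Lce1g, at levels near 1 CPM, differed by 1.68 ± 0.43. The abundant suprabasal keratins differed less: Krt1 by 0.72 ± 0.27 and its partner Krt10 by 0.35 ± 0.24 on the log2 scale.

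Over the epidermal differentiation list as a whole, 0 of 42 members tested passed the edgeR adjusted threshold, 8 were higher at an unadjusted p under 0.05 and none was lower, against 1.68% and 2.64% of all genes. These 8 were Krt2, Lce1g, Flg, Krt1, Lce1h, Tgm3, Lce1e and Lce1d. The Lce1 genes among them are close relatives, so reads may have been shared among them. The list's median log2 fold change was 0.15, beside 0.03 for all genes. The list of stressed keratinocytes had 24 of its 39 members tested; the other 15 were too low in counts. Of the 24, 0 passed the adjusted threshold, 6 were higher at an unadjusted p under 0.05, 23 had positive estimates, and the median was 0.49. Among all genes 56.3% had positive estimates. The mean log2 CPM of this list was highest in median with 20 mJ/cm2 at 96 h, at 3.28, against 2.30 in sham at 96 h. Low members could pass the count filter through that group of 4 libraries, so these counts are not free of the filter. Without the mitochondria-rich libraries, 8 differentiation genes and 8 stress genes were higher at an unadjusted p under 0.05, against 6.64% of all genes. Their medians were 0.20 and 0.71, and in each list 1 passed the adjusted threshold (Krt2 and Stfa3). The alarm keratins mark injured or fast-dividing epidermis. Krt6b ran from 0.606 to 43.0 CPM (median 2.37) with 20 mJ/cm2 and from 0.617 to 45.3 CPM (median 1.89) in sham, and Krt16 from 1.14 to 69.6 CPM (median 9.79) with 20 mJ/cm2 and from 3.09 to 56.9 CPM (median 7.53) in sham. In both genes 1 irradiated and 1 sham animal stood far above the rest, and their log2 differences of 0.46 ± 0.70 and 0.63 ± 0.59 lay within about 1 SE of 0. The acute phase gene Saa3 stayed below 1 CPM in all 9 irradiated libraries (0.303 to 0.768 CPM), against 0.173 to 1.44 CPM in sham, with a log2 difference of 0.01 ± 0.34.

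**Figure D2:**
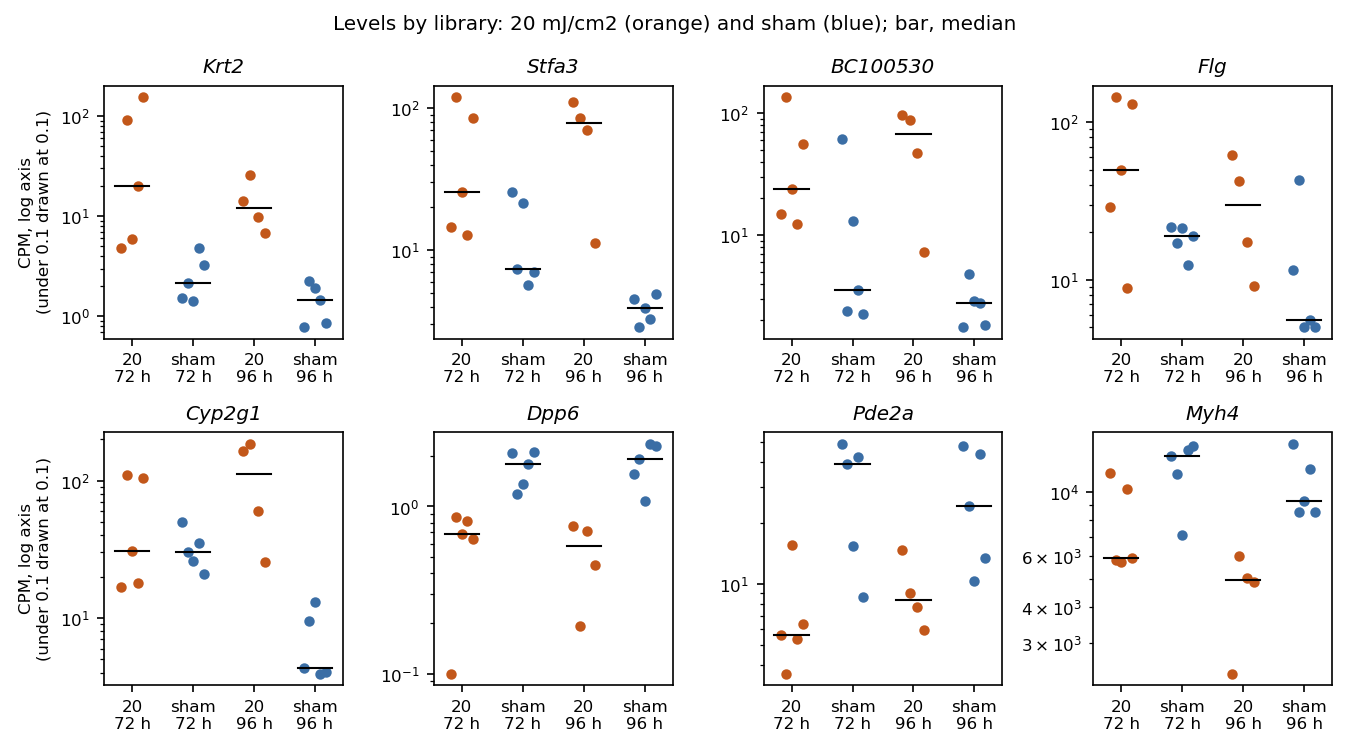
Levels of 8 genes in each library, in CPM on log axes, at 72 and 96 h, with 20 mJ/cm2 in orange, sham in blue and the median as a bar. Krt2 and Dpp6 do not overlap between dose and sham, while Flg, BC100530 and Myh4 do; Cyp2g1 is apart at 96 h and mixed at 72 h.

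Among the genes that were lower, Dpp6, an auxiliary subunit of voltage-gated potassium channels, had the smallest p. At 72 h it was 0, 0.859, 0.682, 0.817 and 0.639 CPM in the 20 mJ/cm2 mice and 2.09, 1.19, 1.36, 1.80 and 2.13 CPM in sham mice. At 96 h it was 0.763, 0.192, 0.714 and 0.448 CPM with 20 mJ/cm2 and 1.57, 1.92, 1.07, 2.37 and 2.31 CPM in sham. Dpp6 was the only gene of those tested with all irradiated libraries below all sham libraries (0.00573%). It could pass the count filter through the sham libraries alone, so its direction is not free of the filter. Its level is low, so each value rests on few reads; the 0 came from the shallowest library, of 3.88 M counts. The log2 fold change was −1.54 ± 0.31, with an edgeR adjusted p of 0.384 and a DESeq2 adjusted p of 0.000699.

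Of the genes next in the order of p, Pde2a, Slc24a3 and P2rx2 are described here; each had an edgeR adjusted p of 0.575. Pde2a, a phosphodiesterase that breaks down cyclic nucleotides, was 5.60, 3.64, 15.5, 5.36 and 6.39 CPM in the 20 mJ/cm2 mice at 72 h and 48.8, 38.7, 15.4, 42.3 and 8.65 CPM in sham mice. At 96 h it was 14.7, 9.02, 7.71 and 5.92 CPM with 20 mJ/cm2 and 47.6, 24.1, 10.3, 43.5 and 13.4 CPM in sham. The sham mice fell into high and low values at both times, and the irradiated mice were at or near the low ones, for a log2 fold change of −1.73 ± 0.38 and a DESeq2 adjusted p of 0.00853. Slc24a3, a potassium-dependent sodium-calcium exchanger, ran from 8.82 to 25.1 CPM (median 16.5) with 20 mJ/cm2 and from 14.7 to 42.0 CPM (median 26.4) in sham (log2 fold change −0.73 ± 0.17, DESeq2 adjusted p = 0.0291). P2rx2, an ATP-gated channel, ran from 0.857 to 2.74 CPM (median 1.36) with 20 mJ/cm2 and from 1.50 to 6.36 CPM (median 3.33) in sham, with a log2 fold change of −1.23 ± 0.29 and a DESeq2 adjusted p of 0.0481. Both belong to a list of 23 genes lowered after 40 mJ/cm2, which was chosen on this series and is no independent evidence of direction. On that list 0 genes passed the edgeR adjusted threshold after 20 mJ/cm2, 5 were lower at an unadjusted p under 0.05 (Slc24a3, P2rx2, H2-M5, H2-M2 and Tgm7), and the median was −0.25. Without the mitochondria-rich libraries 9 were lower and the median was −0.40. Of all genes 2.64% were lower at that p, and 6.68% without those libraries.

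Skeletal muscle transcripts were lower after 20 mJ/cm2. All 24 muscle markers tested had negative estimates, 15 of them at an unadjusted p under 0.05, with a median log2 fold change of −0.60, although 0 passed the adjusted threshold in edgeR. Among all genes 43.7% had negative estimates, and 2.64% were lower at that p. Without the mitochondria-rich libraries 16 of the 24 markers were lower at an unadjusted p under 0.05, against 6.68% of all genes, with the same median of −0.60. Myh4 ran from 2357 to 11601 CPM (median 5839) with 20 mJ/cm2 and from 7095 to 14644 CPM (median 11786) in sham, a log2 fold change of −0.89 ± 0.23, and 7 of 9 irradiated libraries were below every sham library. Casq1, which stores calcium in the muscle reticulum, ran from 487 to 1095 CPM (median 617) with 20 mJ/cm2 and from 891 to 1276 CPM (median 1102) in sham, a log2 fold change of −0.64 ± 0.16. The mean log2 CPM of the list was 9.36 to 10.7 with 20 mJ/cm2 and 9.62 to 11.0 in sham at 72 h, and 9.18 to 10.0 with 20 mJ/cm2 and 9.71 to 10.9 in sham at 96 h. Ucp3, Tmod4 and Asb18, among the 9 genes DESeq2 called lower, are also known from muscle, with log2 fold changes of −0.89, −0.61 and −0.88. With the muscle level as a covariate, the log2 fold change was 3.74 for Krt2, 2.27 for Stfa3, 1.16 for Flg and −1.59 for Dpp6, and edgeR called 0 genes. In that fit 4509 genes had an unadjusted p under 0.05, against 754 without the covariate. How much muscle each skin sample carried was not tested. All 12 adipocyte markers tested were lower in estimate as well, with a median of −0.44 and 1 of them (Plin4) at an unadjusted p under 0.05, or 2 without the mitochondria-rich libraries.

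**Figure D3:**
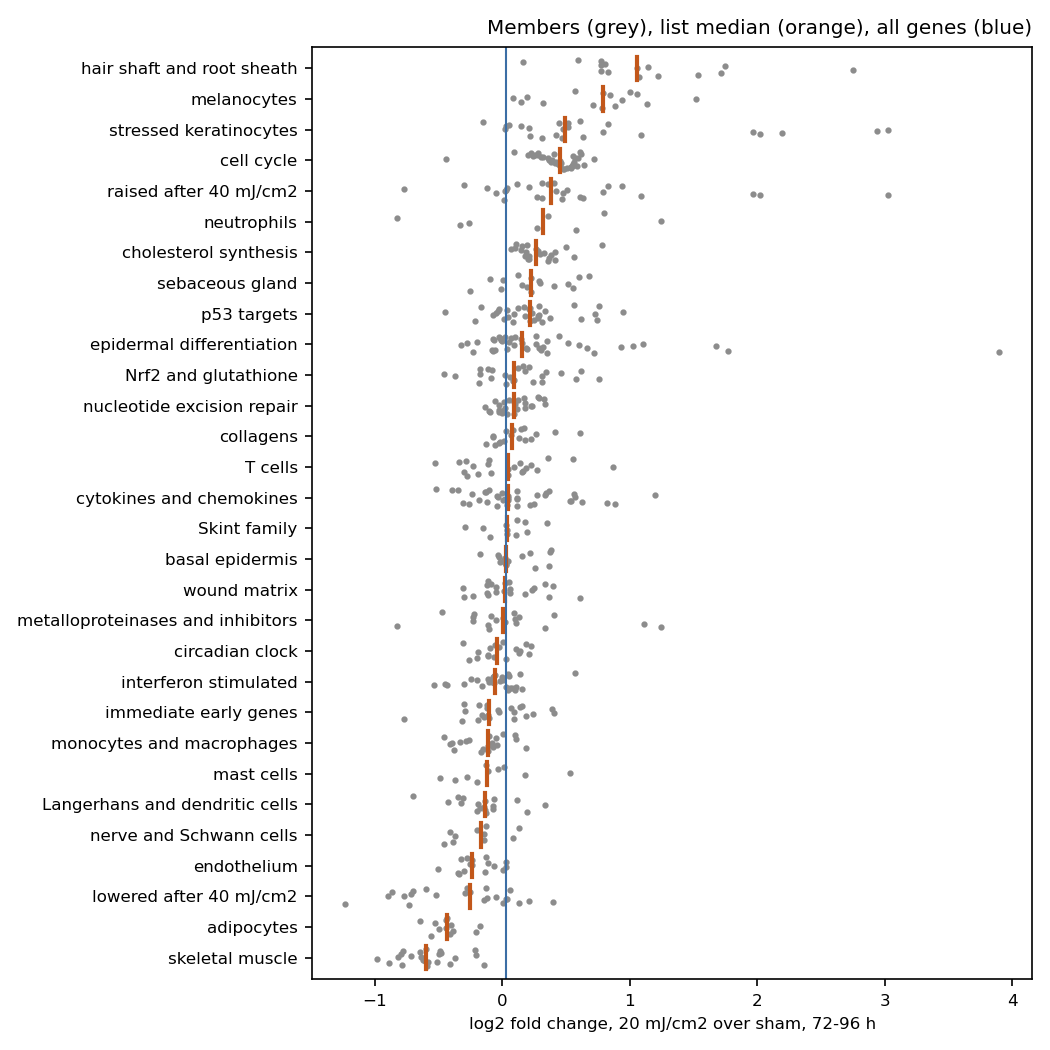
Log2 fold changes of 20 mJ/cm2 over sham at 72 to 96 h for the tested members of 30 gene lists (grey points), with each list's median in orange and the median of all genes (0.03) as a blue line. Hair genes (1.06) and melanocyte genes (0.79) are at the top and skeletal muscle genes (−0.60) at the bottom; no member passed the adjusted threshold.

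Genes of the growing hair follicle varied most between animals. All 15 hair shaft and root sheath genes tested, of 22 in the table, and all 15 melanocyte genes had positive estimates, with medians of 1.06 and 0.79. Among all genes 56.3% had positive estimates. Of these lists, 1 hair gene (Krt72) and 2 melanocyte genes (Pmel and Slc24a5) had an unadjusted p under 0.05, against 1.68% of all genes as higher. Without the mitochondria-rich libraries 9 hair genes and 9 melanocyte genes did, all higher, with medians of 1.70 and 1.26, against 6.64% of all genes; 0 passed the adjusted threshold. The mean log2 CPM of the hair list ran from −0.16 to 2.99 with 20 mJ/cm2 and from −0.17 to 2.65 in sham at 72 h, and from 1.19 to 6.15 with 20 mJ/cm2 and from 0.75 to 5.71 in sham at 96 h. The ranges of irradiated and sham mice covered each other at both times. The count filter asked for enough reads in at least 4 libraries, the size of the 20 mJ/cm2 group at 96 h. Of the 4 groups compared, the hair list was highest in median there, at 4.75, against 3.01 in sham at 96 h. Low hair genes could enter the test through that group, so the count of positive hair estimates is not free of the filter. All 15 melanocyte genes listed were tested. Pmel, a melanosome fibril protein, ran from 3.56 to 96.9 CPM (median 21.3) with 20 mJ/cm2 and from 2.37 to 61.8 CPM (median 11.4) in sham. With the hair level as a covariate the log2 fold changes of Krt2 and Stfa3 were 3.71 and 2.86.

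Genes of the cell division cycle leaned upward. Of 40 tested, 39 had positive estimates with a median of 0.45, 1 was higher at an unadjusted p under 0.05 (Ccne1, which drives entry into DNA replication, by 0.72 ± 0.28) and 1 lower (Ube2c, at −0.44 ± 0.21), and 0 passed the adjusted threshold. Among all genes 56.3% had positive estimates, and 1.68% were higher and 2.64% lower at that p. Without the 3 mitochondria-rich libraries 20 of the 40 were higher at an unadjusted p under 0.05, against 6.64% of all genes. The median was then 0.68, while 0 passed the adjusted threshold. The list's mean log2 CPM ran from 3.31 to 5.21 with 20 mJ/cm2 and from 3.16 to 4.66 in sham at 72 h, and from 4.23 to 5.60 with 20 mJ/cm2 and from 3.98 to 5.35 in sham at 96 h. The sham medians were 3.50 at 72 h and 5.13 at 96 h, and dose and sham overlapped at both times. Sham medians of the hair list were also higher at 96 h, at 3.01 against 0.82 at 72 h. Which cells the cell cycle transcripts came from was not tested.

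Of 33 p53 targets tested, 26 had positive estimates, 3 were higher and 1 lower at an unadjusted p under 0.05, 0 passed the adjusted threshold, and the median was 0.21. Of all genes 56.3% had positive estimates, and 1.68% were higher and 2.64% lower at that p. Without the mitochondria-rich libraries 12 targets were higher and 3 lower at an unadjusted p under 0.05, against 6.64% and 6.68% of all genes. None passed the adjusted threshold, and the median was 0.19. The list's mean log2 CPM ran from 4.82 to 5.06 with 20 mJ/cm2 and from 4.54 to 4.81 in sham at 72 h, and from 4.94 to 4.96 with 20 mJ/cm2 and from 4.73 to 4.96 in sham at 96 h. The groups were apart at 72 h, by little, and overlapped at 96 h. Zmat3, an RNA-binding protein induced by p53, was 49.7, 57.8, 49.0, 42.3 and 48.3 CPM at 72 h in the 20 mJ/cm2 mice and 36.9, 41.3, 34.2, 36.1 and 31.8 CPM in sham mice. At 96 h Zmat3 was 43.3, 57.0, 39.6 and 40.4 CPM with 20 mJ/cm2 and 31.5, 44.5, 33.6, 43.5 and 35.2 CPM in sham. The groups were apart at 72 h and overlapped at 96 h, and the difference was small (log2 fold change 0.37 ± 0.11, edgeR adjusted p = 0.712). The apoptosis gene Pmaip1 differed by 0.74 ± 0.25, Psrc1 by 0.95 ± 0.33 and the cell cycle inhibitor Cdkn1a by 0.31 ± 0.17, and Ddit4l was lower, at −0.45 ± 0.16. Of 27 nucleotide excision repair genes, 0 had an unadjusted p under 0.05.

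All 23 cholesterol synthesis genes had positive estimates, 5 of them at an unadjusted p under 0.05, with a median of 0.27. Among all genes 56.3% had positive estimates, and 1.68% were higher at that p. Without the mitochondria-rich libraries 12 of the 23 were higher at an unadjusted p under 0.05, against 6.64% of all genes, and the median was 0.32. Of 16 sebaceous gland genes, 4 were higher at an unadjusted p under 0.05 (Elovl6, Soat1, Elovl3 and Awat2), or 6 without the mitochondria-rich libraries. The fatty acid elongase Elovl6 ran from 811 to 1836 CPM (median 1394) with 20 mJ/cm2 and from 485 to 1220 CPM (median 814) in sham, a log2 fold change of 0.68 ± 0.18. In neither list did a member pass the adjusted threshold in edgeR.

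Immune and matrix lists had 0 members past the adjusted threshold in edgeR. At an unadjusted p under 0.05, which 1.68% of all genes reached as higher and 2.64% as lower, the cytokine and chemokine list had 1 of 39 higher (Cxcl10), macrophages 2 of 20 lower (Fcgr1 and Cd163), Langerhans and dendritic cells 1 of 18 lower (H2-M2), endothelium 2 of 16 lower (Pecam1 and Selp), and T cells 0 of 22. The Skint family (11), mast cells (10), collagens (18), immediate early genes (23) and clock genes (18) had 0. Metalloproteinases and their inhibitors had 3 of 19 higher (Mmp12, Mmp3 and Mmp8) and 1 lower (Mmp9), with a median of 0.00154. Without the mitochondria-rich libraries, where 6.64% of all genes were higher and 6.68% lower, T cells had 3 of 22 higher and 4 lower, endothelium 5 of 16 lower, macrophages 4 of 20 lower and metalloproteinases 4 of 19 higher and 2 lower. The Skint family, of skin T cell selection, then had 2 of 11 lower, and its median was −0.41, against 0.04 with all libraries. Cd207, the langerin gene of Langerhans cells, ran from 7.08 to 12.7 CPM (median 9.71) with 20 mJ/cm2 and from 7.73 to 16.1 CPM (median 9.99) in sham. Of 17 neutrophil markers 8 had enough counts to be tested. Of these Mmp9 was lower, at −0.82 ± 0.25, Mmp8 higher by 1.24 ± 0.57 and Il1r2 lower, at −0.26 ± 0.12. The wound matrix gene Tnc differed by 0.61 ± 0.28 (14.9 to 105 CPM, median 42.5, with 20 mJ/cm2; 14.0 to 54.9 CPM, median 27.8, in sham).

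The times were also tested apart. At 72 h edgeR called 0 genes (311 at an unadjusted p under 0.05, 1.78%), and DESeq2 called 1. At 96 h edgeR called 0 genes (833 at an unadjusted p under 0.05, 4.78%), and DESeq2 called 17, of which 12 were higher. Cyp2g1, a cytochrome P450 best known from the olfactory lining, had the smallest p at 96 h. It was 163, 185, 59.9 and 25.6 CPM in the 20 mJ/cm2 mice at 96 h, against 4.30, 9.58, 13.0, 3.94 and 4.03 CPM in sham mice. At 72 h it was 16.8, 109, 30.7, 18.0 and 104 CPM with 20 mJ/cm2 and 50.3, 30.4, 25.8, 35.3 and 20.9 CPM in sham. The groups were apart at 96 h, where the sham level was below that of 72 h, and mixed at 72 h. The log2 fold change of Cyp2g1 was 3.97 ± 0.67 at 96 h (edgeR adjusted p = 0.185) and 0.78 ± 0.58 at 72 h. Cers4, a ceramide synthase, was higher at 96 h by 0.95 ± 0.19, and Lgi2 lower, at −1.07 ± 0.20. The change of the effect from 72 to 96 h had 0 calls by edgeR and 0 by DESeq2, with 397 genes at an unadjusted p under 0.05. For Cyp2g1 that change was 3.18 ± 0.86 on the log2 scale (edgeR adjusted p = 1.00).

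At 48 h, in other mice, the same dose had given many calls. In a fit over 6 to 96 h edgeR called 593 of 17896 genes at 48 h (3.31%), 500 higher and 93 lower, 295 at 6 h (1.65%) and 38 at 24 h (0.212%). Saa3 rose at 48 h by 4.82 ± 0.82 (edgeR adjusted p = 0.00275), Krt6b by 4.10 ± 1.08 (0.0269) and BC100530 by 3.78 ± 0.97 (0.0240), and Dpp6 fell by 2.80 on the log2 scale (0.00275). Of the 500 genes called higher, 493 were tested at 72 to 96 h and 445 of those (90.3%) had a positive estimate, against 56.3% of all genes. Their median log2 fold change was 1.03 at 48 h and 0.15 at 72 to 96 h. Of the 493, 46 were higher late at an unadjusted p under 0.05, against 1.68% of all genes. Of the 93 called lower, 91 were tested late and 84 (92.3%) had a negative estimate, against 43.7% of all genes, with medians of −0.73 and −0.17. Of the 91, 22 were lower late at an unadjusted p under 0.05, against 2.64% of all genes. Of the genes called lower at 6 h, 128 of 209 tested late (61.2%) had a negative estimate, with a late median of −0.04, and of those called higher at 6 h, 75 of 80 (93.8%) had a positive one, with a late median of 0.13. Of the genes called at 24 h, 21 of 23 higher ones and 10 of 10 lower ones kept their sign. The count at 48 h rests on single libraries: it was 4 without replicate 2, 10 without replicate 4, 1993 without replicate 1 and 1314 without replicate 3 of the 20 mJ/cm2 mice. The change of the effect between 48 h and 72 to 96 h had 0 calls in edgeR (1760 at an unadjusted p under 0.05) and 5 in DESeq2; without the 20 mJ/cm2 replicate 1 of 48 h edgeR called 215 and without replicate 3 103.

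Single genes followed different courses. The log2 fold change of Saa3 was −0.35 at 6 h, 1.05 at 24 h, 4.82 at 48 h, −0.21 at 72 h and 0.04 at 96 h, and that of Krt6b was 3.64, 5.52, 4.10, 0.03 and 0.50. Krt2 took the other course, with 1.31, −0.34, 1.01, 4.41 and 3.24. Stfa3 was positive at each time, with 1.51, 0.87, 2.46, 1.91 and 4.15. Dpp6 was negative at each time, with −1.31, −1.94, −2.80, −1.40 and −1.71, and Slc24a3 was lowest at 6 h (−2.88) and between −0.57 and −1.06 afterwards. The change from 48 h to 72 to 96 h was −4.90 ± 1.00 for Saa3 and 2.82 ± 1.00 for Krt2, with edgeR adjusted p of 0.241 and 0.391.

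**Figure D4:**
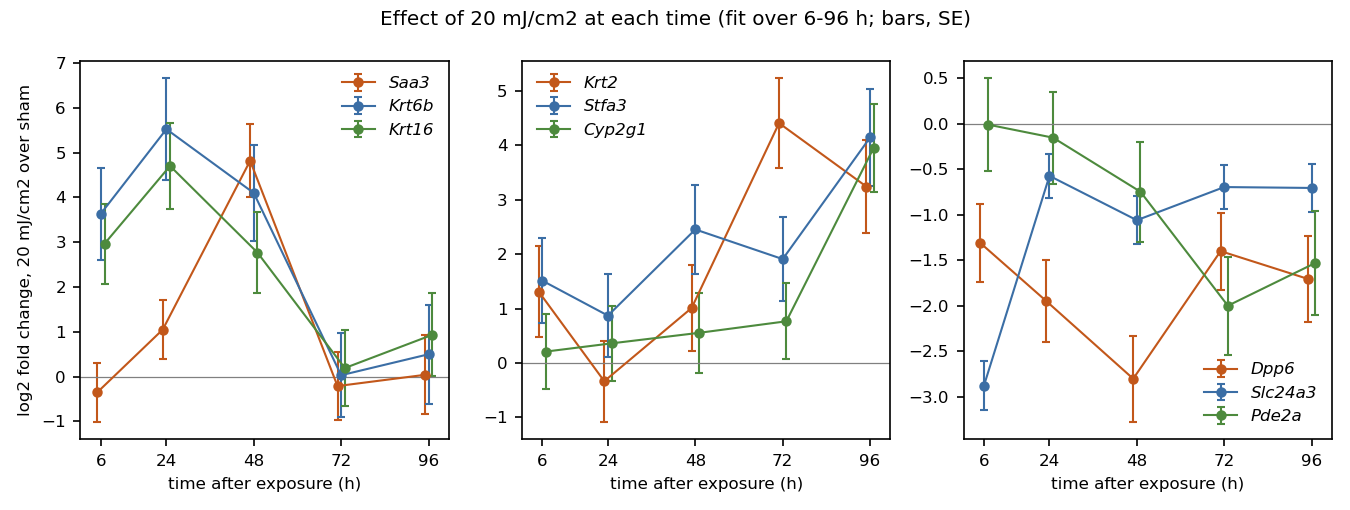
Log2 fold change of 20 mJ/cm2 over sham at 6, 24, 48, 72 and 96 h from 1 fit over 48 libraries, with SE bars, for 9 genes in 3 panels. Saa3 and Krt6b lie between −0.21 and 0.50 at 72 and 96 h, Krt2 is at 4.41 and 3.24 there, and Dpp6 is below 0 throughout.

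At the next higher dose, single genes of stressed and cornifying keratinocytes rose above their 20 mJ/cm2 levels at these times. Between the 9 libraries of 40 mJ/cm2 and the 9 of 20 mJ/cm2 at 72 to 96 h, edgeR called 24 of 16795 genes (0.143%), all higher after 40 mJ/cm2, and DESeq2 called 202. Saa3 at 72 h was 785, 35.9, 41.7, 1357 and 18.8 CPM after 40 mJ/cm2, against 0.764, 0.529, 0.303, 0.613 and 0.730 CPM after 20 mJ/cm2. At 96 h it was 61.3, 33.2, 9.07 and 263 CPM after 40 mJ/cm2 and 0.424, 0.768, 0.357 and 0.359 CPM after 20 mJ/cm2. The doses did not overlap, and Saa3 rose by 8.84 ± 1.08 (edgeR adjusted p = 0.00325). Krt6b ran from 3.34 to 4324 CPM after 40 mJ/cm2 and from 0.606 to 43.0 CPM after 20 mJ/cm2, and rose by 7.97 ± 1.50 (edgeR adjusted p = 0.0421). Rptn, a granular layer protein, rose by 6.16 ± 0.90, Stfa2 by 7.10 ± 1.02 and Lce3f by 7.26 ± 1.08, each with an edgeR adjusted p of 0.0098. The last pair of genes were at 0 or within a few reads of it after 20 mJ/cm2, so their fitted folds depend on the prior count. They could pass the count filter only through the 40 mJ/cm2 libraries, so their direction was set by entering the test. Saa3, at most 0.768 CPM in any 20 mJ/cm2 library, could enter in the same way. The count of calls higher after 40 mJ/cm2 is therefore not free of the filter. Of the stressed keratinocyte list, 9 of 32 members tested were called higher after 40 mJ/cm2, with a median of 3.65, and of the epidermal differentiation list 0 of 42, with a median of 0.83. In the test of 20 mJ/cm2 against sham, 24 stressed keratinocyte members had enough counts. Low members could enter through the 40 mJ/cm2 libraries, so the list's count and median here are not free of the filter. Without the libraries above 7.5% mitochondrial counts edgeR called 1 gene, and leaving out single libraries gave 5 to 81.

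Across the doses the leading genes ordered differently. The median of Krt2 at 72 h was 2.14 CPM in sham, 18.3 at 5, 8.56 at 10, 20.0 at 20 and 0.697 at 40 mJ/cm2, and at 96 h it was 1.45, 6.11, 3.78, 12.0 and 2.45 CPM in the same order. Krt2 was thus lower in median at 40 than at 20 mJ/cm2, at −3.32 ± 1.05 on the log2 scale, with an edgeR adjusted p of 0.300 and a DESeq2 adjusted p of 0.0130. Stfa3 had medians of 7.36, 20.2, 11.2, 25.8 and 212 CPM at 72 h and 3.94, 16.7, 10.1, 77.9 and 162 CPM at 96 h. Saa3 at 72 h had 0.493, 1.20, 0.253, 0.613 and 41.7 CPM. Dpp6 had 1.80, 1.23, 1.65, 0.682 and 0.199 CPM at 72 h and 1.92, 1.57, 1.19, 0.581 and 0.619 CPM at 96 h. The 5 and 10 mJ/cm2 groups are given as levels and were not tested here.

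**Figure D5:**
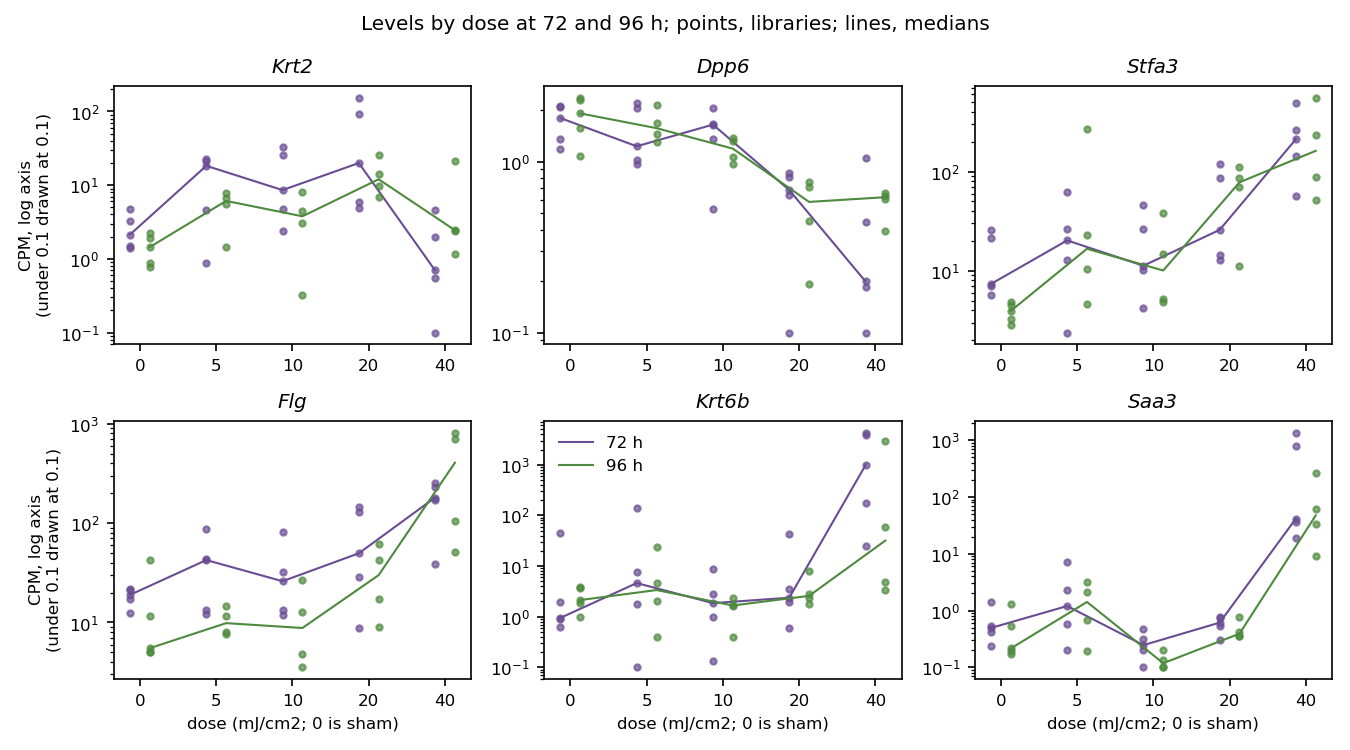
Levels of 6 genes in CPM on log axes against dose (0 is sham, then 5, 10, 20 and 40 mJ/cm2) at 72 and 96 h, with points for libraries and lines through the medians. The medians of Saa3 and Krt6b are highest at 40 mJ/cm2, Krt2 is highest in median at 20 mJ/cm2, and Dpp6 is lower at 20 and 40 mJ/cm2 than in sham.

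With the mitochondria-rich libraries left out, the 12 genes edgeR called were Krt2, Stfa3, Crabp1, Ms4a10 and Igfbp2, which rose, and Pdk4, Pfkfb3, Hpgds, Lama1, Kcnq5, BC023105 and Tmem178b, which fell. Crabp1, a retinoic acid binding protein of the hair follicle and dermis, was 27.0, 36.5, 5.46, 24.3 and 26.9 CPM at 72 h in the 20 mJ/cm2 mice and 14.7, 3.56, 5.67, 10.1 and 12.4 CPM in sham mice. At 96 h it was 24.9, 28.4, 6.43 and 16.8 CPM with 20 mJ/cm2 and 11.2, 6.23, 11.7, 10.6 and 11.2 CPM in sham. The 2 low irradiated values were those of the mitochondria-rich libraries, and without them the log2 fold change was 1.32, against 1.13 ± 0.33 with them. Pdk4, which turns down glucose oxidation, ran from 48.9 to 354 CPM (median 128) with 20 mJ/cm2 and from 76.9 to 587 CPM (median 265) in sham, with log2 fold changes of −1.48 without these libraries and −0.98 ± 0.40 with them. Ms4a10 was detected at up to 1.73 CPM with 20 mJ/cm2 and up to 0.237 CPM in sham. It could pass the count filter only through the irradiated libraries, so its direction was set by entering the test. With 1 library left out at a time it was tested in 16 of 19 fits.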

How the data were processed

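Dorsal skin poly(A) RNA was sequenced as stranded libraries of single reads, per the labels' protocols. The authors' deposited values are expected counts, estimates of the reads of each gene, and 12.6% of them are not whole numbers. Per the submitters' processing notes, the tools included STAR 2.7.10a and DESeq2 1.36.1, besides fastp 0.23.0 and bcl2fastq 2.20.422, and the genome build was GRCm39. The program behind these estimates and its strand setting are not named in the labels. Overlapping and antisense genes are therefore uncertain, as are close relatives such as the Stfa, Sprr2, Lce and Krt6 genes. Of 55416 gene identifiers 52083 received a symbol from GENCODE vM21 (GRCm38), and those without one held 0.0906% of counts. Within each of the 4 groups compared, no library pair agreed within sampling noise. Other pairs of libraries were not compared.

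Rounded values went into edgeR 4.0.16 under R 4.3.3 (TMM, filterByExpr by group, two-sided quasi-likelihood F tests, Benjamini-Hochberg adjustment, threshold 0.05), with dose, time and the ending of the library title (R1_001 or R1, meaning not given) as terms. The SE is the log2 fold change divided by the root of F. CPM were scaled by TMM over 75 libraries; counting error is included in the spread between animals. Alternatives were DESeq2 1.42.0, sva 3.50.0 and others given in the closing section. The comparison and the gene lists were chosen with earlier results of these data known. The rule for naming genes took called genes (up to 15 per direction for 20 mJ/cm2 against sham, 5 for the others, mean log2 CPM of at least 0, the same sign without any 1 library) and each list's called members or the one of smallest p; since it yields no called gene here, leading genes by p were added after their values were seen.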

Additional observations from a re-analysis of the deposited data

Results flagged for a closer look

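A library was singled out where it stood far from the others of its group by Dixon's criterion. Of 380 groups of values looked at, 36 had such a library. In 26 it was the highest and in 10 the lowest. Chance would give about 1 in 20, or 19, only if values were normally distributed and groups independent. Gene values were taken as CPM without a log scale, which favours high flags, and the same animals recur across genes. The 36 can therefore not be set against the 19. The flagged values have no explanation offered, and whether any reflects the animal or the library was not tested.

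In sham mice at 72 h 1 animal was high in many stress genes: BC100530 reached 60.7 CPM, Stfa1 6.49, Tdh 3.82, Endou 28.5, Krt6b 45.3, Krt16 56.9, Saa3 1.44 and Mgst2 12.8 CPM in replicate 1. Ms4a10 also had a high sham value at 72 h, 0.237 CPM, and the muscle list had a low one, a mean log2 CPM of 9.62. In sham mice at 96 h the high values were 1.28 CPM for Lce1g, 43.0 for Flg, 13.7 for Rptn, 2.00 for Krt72 and 0.0716 for Ms4a10, and the low one was 6.23 CPM for Crabp1. Those of Flg, Rptn, Lce1g and Crabp1 came from sham replicate 2.

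Among the 20 mJ/cm2 mice at 72 h, high values were 2.65 CPM for Lce1h, 43.0 for Krt6b, 69.6 for Krt16, 15.5 for Pde2a, 15.2 for Pmaip1, 0.821 for Krt72 and 89.1 for Hpgds. Low values were 0 CPM for Dpp6 and 89.6 CPM for Cdkn1a, and mean log2 CPM of 1.69 for T cell genes, 5.68 for cholesterol synthesis genes and 4.21 for metalloproteinases and their inhibitors. At 96 h high values with 20 mJ/cm2 were 6.44 CPM for Lce1g, 7.87 for Krt6b, 0.768 for Saa3, 1.73 for Ms4a10 and 4.99 for Lcn2. Low values there were 7.97 CPM for Asb12 and mean log2 CPM of 5.12 for adipocyte genes and 1.87 for genes raised after 40 mJ/cm2.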

How the results depend on the processing

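The count of genes edgeR called at 72 to 96 h was 0, and it stayed 0 with upper quartile or relative log expression normalization, at least 10 counts in at least 9 libraries, either title ending alone, the muscle level as covariate (where 4509 genes had an unadjusted p under 0.05, against 754), the hair level as covariate, and robust moderation. It was 2 with no filter, 1 with no title ending, 1 with all doses in the fit, 18 with DESeq2, and, in alternatives chosen after seeing the data, 7 with the mitochondrial share as covariate, 12 without the mitochondria-rich libraries (330 with DESeq2) and 12 with 2 surrogate variables. At 72 h DESeq2 gave 1; at 96 h DESeq2 gave 17 and the mitochondrial covariate 1. At 48 h the 593 became 1078 with DESeq2, 6 with libraries of 48 to 96 h alone and 4 without the library titled as a repeat. The same count was 2784 without every library of that fit above 7.5% mitochondrial counts, and 1799 with the mitochondrial share as covariate. The libraries left out there include some of 6 and 24 h and none of 48 h. The change from 48 h to 72 to 96 h gave 5 with DESeq2. For 40 against 20 mJ/cm2 the 24 became 202 with DESeq2, 282 with all doses and 44 with the mitochondrial share as covariate. It became 1 without the libraries of these doses above 7.5% mitochondrial counts, among them 40 mJ/cm2 replicate 3 at 72 h (9.01%). Leaving out 1 library at a time gave 0 to 1 calls late (Krt2 alone, without replicate 1 or 3 of the 20 mJ/cm2 mice at 72 h), 0 to 0 at 72 h, 0 to 3 at 96 h, 0 to 0 for the change between them, 4 to 1993 at 48 h, 0 to 215 for the change from 48 h, and 5 to 81 for 40 against 20 mJ/cm2, where 20 mJ/cm2 libraries left out gave 5 to 9. The cause was not tested.

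The log2 fold changes of the followed genes kept their sign except for 3: Saa3 (0.01 as reported; DESeq2 −0.000423, no title ending −0.0973, all doses −0.0753, mitochondrial covariate −0.0342; −0.10 to 0.20 leaving out 1 library), Rptn (0.02 as reported; −0.147 with no title ending, −0.394 with all doses, −0.945 with the muscle covariate; −0.22 to 0.89) and Krt6b (0.46 as reported; −0.0156 with the R1_001 libraries alone; −0.12 to 1.43). No paired analysis was possible because the labels number each animal individually and do not say which animals of different groups belong together. The replicate numbers here follow the order of accession. At 96 h some animal numbers are absent, so replicate numbers there can differ from an animal's place in its group. A block by that place was not fitted. The mitochondrial share at 72 h followed it in part, since replicate 5 held 2.05% to 2.51% in all 5 dose groups. Whether such a block would change the results was not tested. Fold changes of genes near 1 CPM rest on few reads per library, and differences below the spread between these 19 animals could not be shown.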
